A study of Mus musculus with 4 samples.

Results

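Retinoid metabolism and retinoic acid receptor genes are described here in the mouse cerebral cortex at embryonic day 15 (E15), in a bulk RNA-seq comparison of control and Lhx2 cKO tissue. The set was named by 9 symbols (Dhrs3, Rdh10, Crabp1, Crabp2, Cyp26b1, Rara, Rarb, Rxra and Rxrg), and its members are the rows of the deposited count table that carry one of them. Dhrs3, Rdh10, Crabp2, Rara and Rxra were found, which makes 5 members of 13289 genes in the table, and all 5 passed the filter on low counts. Crabp1, Cyp26b1, Rarb and Rxrg are not analysed here. The set was chosen by function but with the changes in Lhx2 cKO already known from these same libraries, so those changes are given as a description and support nothing.

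The series is about temporal patterning of radial glia, the progenitors that generate cortical neurons and glia. It has 4 libraries of polyadenylated RNA from cortex: 2 control libraries, titled WT, and 2 Lhx2 cKO libraries, titled Lhx2cKO, read as a conditional knockout of the LIM-homeodomain transcription factor Lhx2. The strain, the Cre driver, the floxed allele and the number of embryos behind a library are not given in the sources used here, nor is anything that says the libraries of a group came from separate animals. The spread between libraries may therefore be technical.

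Retinoic acid is made from vitamin A (retinol) in 2 steps of oxidation. Retinol is first turned to retinaldehyde, chiefly by RDH10 in the embryo, and this step is reversed by DHRS3, which reduces retinaldehyde back to retinol and so limits how much retinoic acid forms. Retinaldehyde dehydrogenases then make retinoic acid, CRABP proteins carry it in the cytoplasm, CYP26 enzymes hydroxylate it for removal, and it acts by binding RAR receptors that sit on DNA as heterodimers with RXR receptors. Around the developing forebrain, the meninges are a known source of retinoic acid, and Dhrs3 is itself a well-known gene that retinoic acid induces in many tissues.

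Of the 5 members, 1 was higher in Lhx2 cKO and 4 did not pass the threshold in either direction. Dhrs3 was 5.56 times its control level. The intervals of the other 4 included no change, and of these Crabp2 was measured with the least precision. A gene is called here when its adjusted p is under 0.05 in edgeR's quasi-likelihood test over all 13288 genes tested. The members' calls are given for description. By that rule 20.8% of all genes were called, 11.6% as higher and 9.17% as lower, against 1 of 5 members as higher and 0 as lower. The scaled levels of control and Lhx2 cKO did not overlap for 59.3% of all genes and for 1 member, Dhrs3. Across the genes tested, the median log2 fold change was 0.003.

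**Figure D1:**
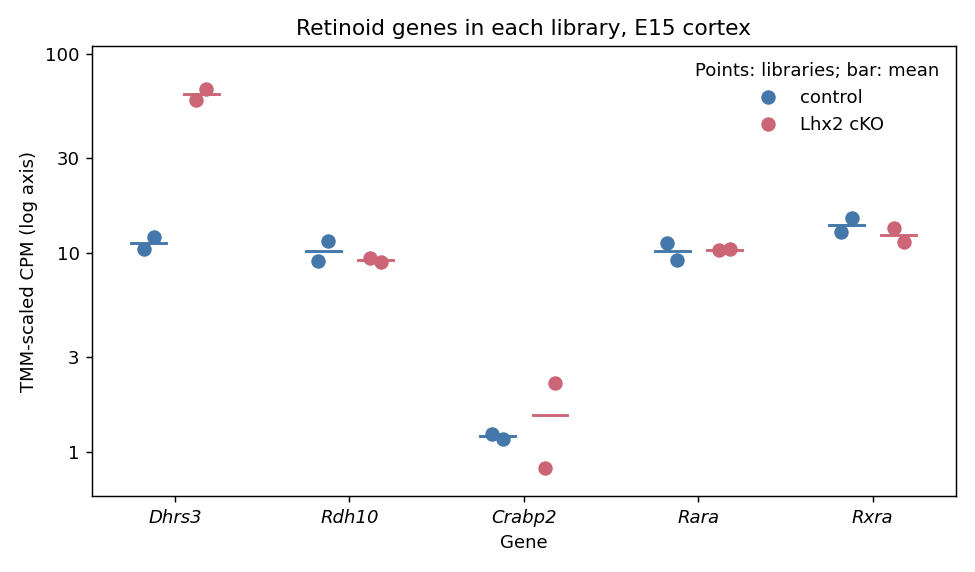
Level of each retinoid gene (x axis) in CPM, scaled with TMM, on a log axis (y axis); each point is a library and each bar the mean of the 2 libraries of a group. Dhrs3 lies at 58.8 and 66.7 CPM in Lhx2 cKO, above its control libraries at 10.5 and 12.1 CPM, while the groups overlap for the other 4 genes.

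Total counts, over the genes of the table, were 22294237 to 24609627 per library, and a detection floor of 3 counts equals 0.12 to 0.132 CPM, that is, counts per 1000000 reads counted and scaled with TMM. The targeted gene, Lhx2, was at 316 and 287 CPM in the libraries of control embryos and at 239 and 247 CPM in those of Lhx2 cKO, a log2 fold change of -0.31 (SE 0.098, edgeR adjusted p 0.0191). Its mean level in Lhx2 cKO was 80.7% of that in control, and which exons the cKO allele removes is not given in the sources used here. That call was lost without control 1, Lhx2 cKO 1 or Lhx2 cKO 2, at log2 fold changes of -0.25, -0.28 and -0.34 and edgeR adjusted p values of 0.176, 0.102 and 0.0538. All 8 markers of cortical neurons and progenitors were detected, with a summed level of 2792 to 2793 CPM in control and 2169 to 2178 CPM in Lhx2 cKO. In bulk tissue, fewer cells of a type and less RNA per cell cannot be told apart.

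Dhrs3 (ENSMUSG00000066026.15) encodes the retinaldehyde reductase. Its reads numbered 254 and 302 in control and rose to 1339 and 1532 once Lhx2 was targeted. Scaled to depth these were 10.5 and 12.1 CPM in control against 58.8 and 66.7 CPM in Lhx2 cKO. Both Lhx2 cKO libraries lay far above both control libraries, and the libraries of a group lay close together. The split of the reads within a group was also set against total counts, without the TMM factors. In control, library 1 held 45.7% of the Dhrs3 reads (95% exact binomial interval 41.5 to 49.9%), where depth alone would give 50.2%. In Lhx2 cKO it held 46.6% (44.8 to 48.5%), where depth alone would give 48.6%. The means were 11.3 ± 1.14 CPM in control and 62.8 ± 5.54 CPM in Lhx2 cKO (SD, n = 2). The log2 fold change was 2.48 (SE 0.119), with a 95% interval of 2.23 to 2.72, or 4.71-fold to 6.57-fold. Dhrs3 had the 27th highest log2 fold change of the 13288 genes tested, and 99.7% of genes changed by less in either direction. This place is a description only, since the set was chosen with the change known. Leaving out each library in turn gave log2 fold changes of 2.36 to 2.58, and Dhrs3 was called each time. In the authors' deposited table its log2 fold change is 2.47, and that table marks it as up.

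**Figure D2:**
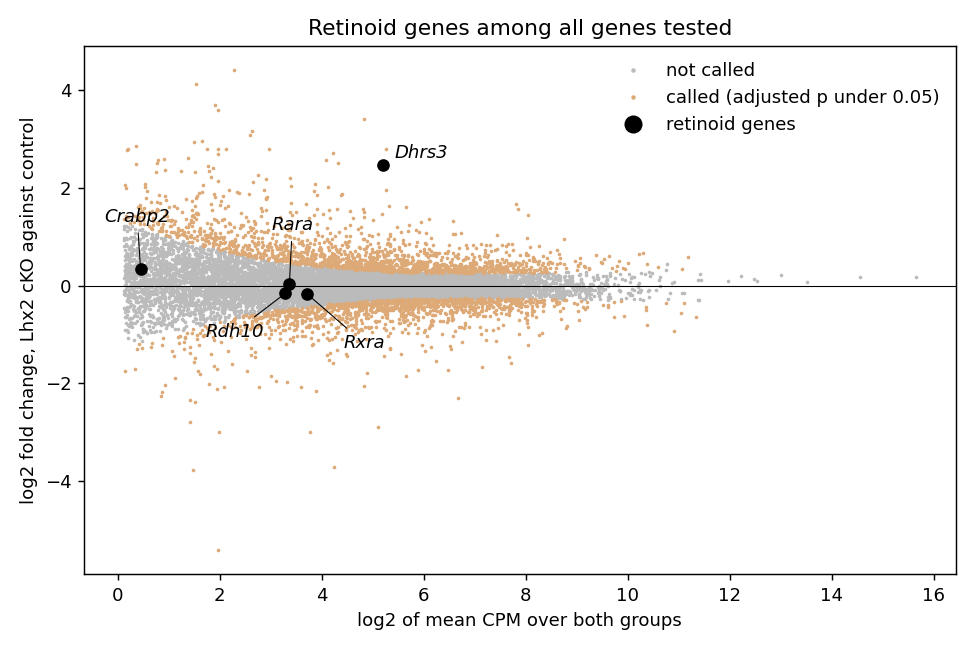
Log2 fold change, Lhx2 cKO against control (y axis), by log2 of the mean CPM over both groups (x axis) for all 13288 genes tested; black points are the retinoid genes. Dhrs3, at 2.48, stands near the upper edge of all genes, and the other 4 lie within the band of genes that were not called.

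The 250 bases before the most upstream Dhrs3 start site in RefSeq are shown because Dhrs3 is the member that was called. They lie at chr4:144892577-144892826 on the plus strand of GRCm38.p6, with the start site at the base after the last one, and CpG dinucleotides in capitals.
Dhrs3 upstream: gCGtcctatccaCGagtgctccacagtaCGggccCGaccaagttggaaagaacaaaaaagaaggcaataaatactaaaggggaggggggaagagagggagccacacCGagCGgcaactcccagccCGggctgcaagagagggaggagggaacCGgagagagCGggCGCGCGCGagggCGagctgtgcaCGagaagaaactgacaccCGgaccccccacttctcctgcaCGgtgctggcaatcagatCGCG
The stretch holds 19 CpG dinucleotides, more than 80.3% of the 32851 RefSeq windows of this length, whose median is 6. The stretches before the other Dhrs3 start sites hold 8 and 7, more than 57.0% and 53.7% of these windows. Which start site is used in this tissue was not tested. RefSeq gives Dhrs3 3 start sites, and the windows from 250 bases before to 50 bases after each were searched on both strands for 5 motifs. None was found in the 3 Dhrs3 windows. The motifs were pairs of the retinoic acid receptor hexamer in direct repeat, written as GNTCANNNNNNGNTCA (found in 0.861% of all windows), GNTCANNNGNTCA (1.12%) and GNTCANNGNTCA (1.26%), the single hexamer AGGTCA (16.3%), and the homeodomain core TAATTA (5.29%). Rxra and Rara, with 2 and 4 windows, each had 1 window with the single hexamer, and no match to the other 4 motifs. RefSeq windows for Rdh10 and Crabp2 were not matched. The letters describe these windows only, and the libraries hold no measurement of binding or chromatin.

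No exon of another gene overlaps an exon of Dhrs3, Rdh10, Crabp2, Rara or Rxra in GENCODE M21, which matters because the use of strand in the counting is not given in the sources used here. The tested genes next to Dhrs3 in RefSeq, chosen by position alone, were Vps13d and Pramel12 on one side and Tnfrsf1b and Zfp990 on the other. Their log2 fold changes were 0.24 (SE 0.098) for Vps13d, -0.11 (SE 0.143) for Pramel12, 0.28 (SE 0.327) for Tnfrsf1b and 0.19 (SE 0.352) for Zfp990, and 0 of the 4 were called.

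Rdh10 (ENSMUSG00000025921.8) encodes the retinol dehydrogenase that works against DHRS3. It was at 9.11 and 11.4 CPM in control and at 9.41 and 9.05 CPM in Lhx2 cKO. Control 2 was the highest library and the other 3 lay within a narrow range, so the groups overlapped. The log2 fold change was -0.16 (SE 0.177), with a 95% interval of -0.51 to 0.20. As a fold of the control level this interval runs from 0.70 to 1.15. Without control 2 the log2 fold change was 0.018, and without control 1 it was -0.32.

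The ratio of the reads of these genes within a library does not depend on scaling between libraries. Dhrs3 counts were 1.15 and 1.06 times the Rdh10 counts in control and 6.26 and 7.37 times in Lhx2 cKO. Per length of transcript, the ratio was 1.57 ± 0.093 in control and 9.68 ± 1.12 in Lhx2 cKO (SD, n = 2). Dhrs3 was 53.5% (95% Wilson interval 49 to 57.9%) and 51.4% (47.3 to 55.4%) of the reads of the pair in control, and 86.2% (84.4 to 87.8%) and 88% (86.4 to 89.5%) in Lhx2 cKO. These intervals cover counting error only, and the shares restate the known change of Dhrs3 beside Rdh10, which was not called. With 2 libraries against 2, the smallest two-sided exact permutation p is 0.333, so the ratio was not tested.

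**Figure D3:**
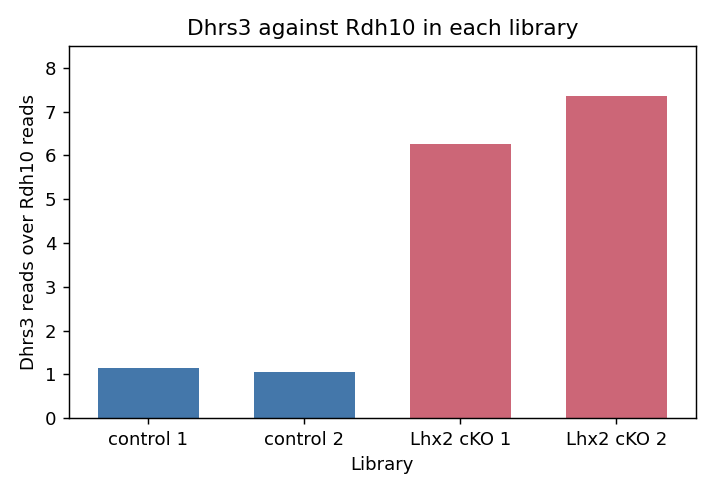
Ratio of Dhrs3 read counts to Rdh10 read counts (y axis) in each library (x axis); bars start at 0. Control bars stand at 1.15 and 1.06, and those of Lhx2 cKO at 6.26 and 7.37.

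Crabp2 (ENSMUSG00000004885.6), a cytoplasmic carrier of retinoic acid that retinoic acid itself induces in many cells, was the lowest member. It had 30 and 29 counts in control and 19 and 51 in Lhx2 cKO, or 1.24 and 1.16 CPM against 0.835 and 2.22 CPM. The Lhx2 cKO libraries lay on either side of both control libraries. Of the Crabp2 reads in Lhx2 cKO, 27.1% were in library 1 (95% exact binomial interval 17.2 to 39.1%), where depth alone would give 48.6%. These libraries thus differed beyond counting error. By the same measure, which leaves out TMM, so did the libraries of each group for Dhrs3 and Rxra, and those of control for Rdh10. For Dhrs3 in control and Rxra in Lhx2 cKO the interval ended close to the share by depth, so the difference depends on the scaling. The log2 fold change was 0.35 (SE 0.452), with a 95% interval of -0.56 to 1.26. Its sign rested on Lhx2 cKO 2, without which it was -0.52, and it was 0.89 without Lhx2 cKO 1. As a fold of the control level, the interval runs from 0.68 to 2.40.

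Crabp2 is also known from meningeal fibroblasts. Of 13 markers of these cells 6 were tested, with 0 called higher and 1 called lower (16.7%, against 20.8% of all genes). Col1a1, a fibrillar collagen, was that gene, with a mean of 24.4 CPM in control and 3.05 CPM in Lhx2 cKO. The summed level of the 6 was 76.6 to 83.3 CPM in control and 65.4 to 65.7 CPM in Lhx2 cKO, and none was at 0 in either group's mean. Without Col1a1, a sum added after the values were seen, the other 5 stood at 53.6 to 57.6 CPM in control and 60.9 to 64.0 CPM in Lhx2 cKO, the opposite direction. The log2 fold changes of these 5 were 0.25 for Col1a2, 0.20 for Col3a1, 0.17 for Bgn, 0.16 for Foxd1 and -0.03 for Foxc1, none of them called, and the median of the 6 was 0.16. Aldh1a2, the meningeal retinaldehyde dehydrogenase, is not analysed here. The part of the meninges in the values of Crabp2 or Dhrs3 was not tested.

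Neither member receptor was called. Rara (ENSMUSG00000037992.17), the retinoic acid receptor alpha, was at 11.2 and 9.20 CPM in control and at 10.4 and 10.4 CPM in Lhx2 cKO, with both Lhx2 cKO libraries between the control libraries. Its log2 fold change was 0.03 (SE 0.172), with a 95% interval of -0.32 to 0.38, and -0.11 without control 2. Rxra (ENSMUSG00000015846.16), the retinoid X receptor alpha, was at 12.7 and 15.1 CPM in control and at 13.3 and 11.4 CPM in Lhx2 cKO, and the groups overlapped. Its log2 fold change was -0.17 (SE 0.159), with a 95% interval of -0.49 to 0.15. In the fits without 1 library it ran from -0.30 (without control 1) to -0.04 (without control 2), and was -0.07 without Lhx2 cKO 2. As a fold of the control level, the 95% intervals run from 0.80 to 1.30 for Rara and from 0.71 to 1.11 for Rxra. They do not cover differences between animals if the libraries of a group are technical.

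Their paralogs Rarg and Rxrb, which were not among the listed symbols, were not called either. Rarg was at 18.1 and 15.4 CPM in control and 18.4 and 18.2 CPM in Lhx2 cKO, a log2 fold change of 0.12 (SE 0.141, edgeR adjusted p 0.592). Rxrb was at 130 and 110 CPM in control and 110 and 103 CPM in Lhx2 cKO, a log2 fold change of -0.18 (SE 0.098, edgeR adjusted p 0.211). The Rxra reads were 0.0978 and 0.137 of the Rxrb reads in control, against 0.121 and 0.111 in Lhx2 cKO. Rxrb was thus the more abundant of these RXR transcripts in every library. The Rara reads were 0.621 and 0.596 of the Rarg reads in control and 0.565 and 0.576 in Lhx2 cKO.

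Levels of different genes are compared per length, and Dhrs3 was the highest and Crabp2 the lowest member in both groups. In control, Dhrs3 was at 3.85 ± 0.389 CPM per kilobase of transcript (RPKM, SD, n = 2), Rdh10 at 2.47 ± 0.396, Rara at 2.34 ± 0.326, Rxra at 2.20 ± 0.267 and Crabp2 at 0.907 ± 0.041 RPKM. Rdh10, Rara and Rxra did not differ from one another beyond these SDs. In Lhx2 cKO, Dhrs3 was at 21.4 ± 1.89 RPKM, Rara at 2.38 ± 0.012, Rdh10 at 2.22 ± 0.060, Rxra at 1.96 ± 0.214 and Crabp2 at 1.16 ± 0.741 RPKM. Dhrs3 was above every other member in each of the 4 libraries.

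Other genes of the pathway were taken from 8 lists written from general knowledge, with earlier results of these data known, so their shares are a description. Of 63 distinct genes 34 were tested, of which 5 were called higher and 7 lower (35.3%, against 20.8% of all genes). Their median log2 fold change was -0.09, against 0.003 over all genes. The list of retinaldehyde dehydrogenases had no tested member, so the step that makes retinoic acid is not described here.

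**Figure D4:**
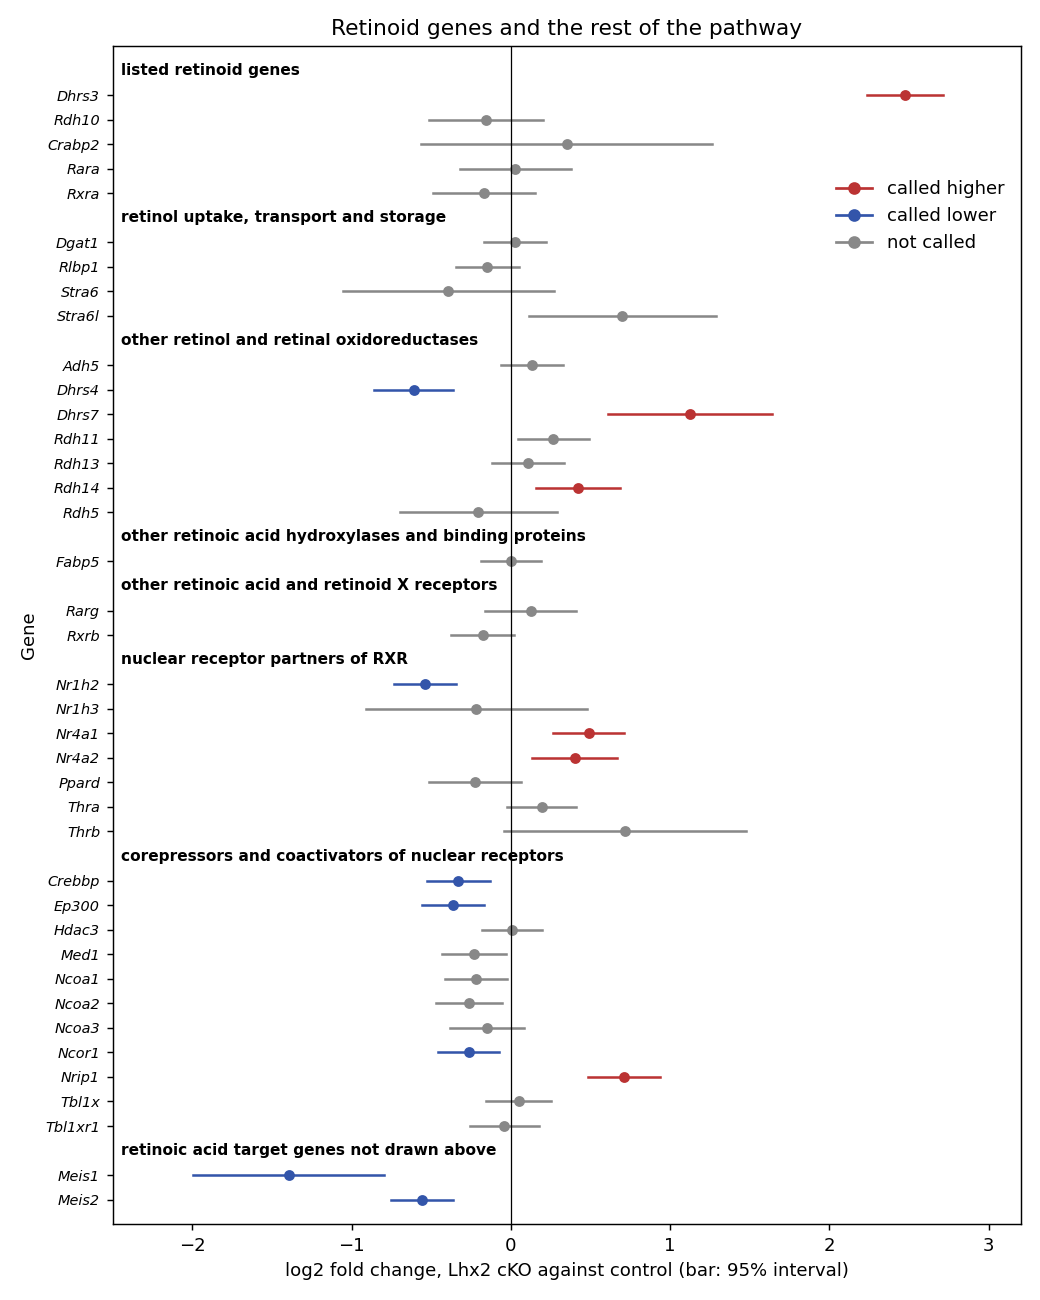
Log2 fold change, Lhx2 cKO against control (x axis), with its 95% interval for the 5 retinoid genes and 34 other genes of the pathway (y axis), grouped by list; a gene on more than one list is drawn once. Red genes were called higher, blue genes lower and grey genes were not called; Dhrs3 at 2.48 is the highest and Meis1 at -1.40 the lowest.

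Among genes of retinol uptake, transport and storage, 4 were tested and 0 were called by edgeR's quasi-likelihood test, against 20.8% of all genes. Of these 4, 1 was at an unadjusted p under 0.05, Stra6l, and 0 were called by DESeq2. Stra6, a membrane receptor for retinol uptake, had a log2 fold change of -0.39 (SE 0.328), and its relative Stra6l, a retinol receptor of other tissues, one of 0.70 (SE 0.291, edgeR adjusted p 0.0826). Dgat1, which can esterify retinol for storage, was at 0.03 (SE 0.096), and Rlbp1, a binding protein for retinaldehyde, at -0.15 (SE 0.097).

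Among the other retinol and retinal oxidoreductases, 2 of 7 tested were called higher and 1 lower (42.9%, against 20.8% of all genes). Dhrs7 rose from 3.22 and 2.64 CPM to 6.28 and 6.49 CPM, a log2 fold change of 1.12 (SE 0.255, edgeR adjusted p 0.00103). Rdh14 rose by less, from 19.3 and 22.2 CPM to 24.4 and 31.3 CPM, at a log2 fold change of 0.42 (edgeR adjusted p 0.016). The call of Rdh14 was lost without control 1 (0.31 on the log2 scale) and without Lhx2 cKO 2 (0.23). Dhrs4, a peroxisomal carbonyl reductase able to act on retinal, fell from 31.9 and 29.3 CPM to 21.1 and 19.0 CPM, a log2 fold change of -0.61 (SE 0.122, edgeR adjusted p 2.17e-04). The short-chain dehydrogenases of this pathway thus moved in both directions. Fabp5, a fatty acid-binding protein that can also carry retinoic acid, was at 169 CPM on average in both groups, with a log2 fold change below 0.001.

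Of the nuclear receptors that pair with RXR, 2 of 7 tested were called higher and 1 lower (42.9%, against 20.8% of all genes). Nr1h2, the liver X receptor beta, fell from 117 and 110 CPM to 80.9 and 75.0 CPM, a log2 fold change of -0.54 (SE 0.097, edgeR adjusted p 4.04e-05). Nr4a1 and Nr4a2, nuclear receptors that are also activity-induced genes, had log2 fold changes of 0.49 (edgeR adjusted p 9.51e-04) and 0.40 (edgeR adjusted p 0.0242). The call of Nr4a1 was lost without Lhx2 cKO 1, at 0.26 on the log2 scale. That of Nr4a2 was lost without control 1, control 2 or Lhx2 cKO 1, at 0.38, 0.41 and 0.30.

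Among corepressors and coactivators of nuclear receptors, 1 of 11 tested was called higher and 3 lower (36.4%, against 20.8% of all genes). Nrip1, a corepressor of liganded receptors that retinoic acid induces, rose from 24.0 and 29.2 CPM to 44.2 and 42.9 CPM, a log2 fold change of 0.71 (SE 0.113, edgeR adjusted p 5.53e-06). Ep300 and Crebbp, paralogous histone acetyltransferases and coactivators, fell by 0.36 (edgeR adjusted p 0.00522) and 0.33 (edgeR adjusted p 0.0117) on the log2 scale. Exons of Ep300 overlap the microRNA gene Gm23880 on the same strand. The call of Crebbp was lost without control 1 (-0.22) and without Lhx2 cKO 2 (-0.29).

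Of 11 other genes known to respond to retinoic acid, 4 were tested, with 1 called higher and 2 lower (75.0%, against 20.8% of all genes). Their median log2 fold change was -0.48, which describes these 4 genes only. The gene called higher was Nrip1, which also stands on the list above. Meis2, a TALE homeodomain factor, fell from 311 and 308 CPM to 212 and 208 CPM, a log2 fold change of -0.56 (SE 0.096, edgeR adjusted p 2.17e-05). Meis1, its paralog, fell from 4.21 and 6.04 CPM to 1.93 and 1.96 CPM, a log2 fold change of -1.40 (SE 0.298, edgeR adjusted p 5.04e-04). The exons of Meis1 overlap an antisense model and, on the same strand, the model Gm37818. Of these 4 genes, Nrip1 alone was called in the direction of Dhrs3. Hoxb1, Cdx1, Stra8, Tgm2, Rarres1, Rarres2 and Cyp26a1 are not analysed here.

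Markers of several other cell types differed between the groups together with Dhrs3. Beside the counts below, 11.6% of all genes were called higher and 9.17% lower. Of the microglia markers 8 of 9 tested were called higher, and their summed level was 117 to 118 CPM in control and 239 to 264 CPM in Lhx2 cKO, a ratio of 2.14. Of the Cajal-Retzius markers 4 of 6 were called higher, with sums of 295 to 326 and 447 to 570 CPM, a ratio of 1.64. Most of these sums came from Reln, one of those called, with means of 274 CPM in control and 441 CPM in Lhx2 cKO. Endothelial and pericyte markers summed to 242 to 277 CPM in control and 306 to 343 CPM in Lhx2 cKO, with 5 of 8 called higher and 1 lower. The 5 called higher were the endothelial genes Cldn5, Cdh5, Pecam1, Kdr and Flt1. Of the pericyte genes, Rgs5 was called lower, at a log2 fold change of -0.34. Pdgfrb (0.06) and Kcnj8 (0.16) were not called. Striatal neuron markers summed to 136 to 161 and 182 CPM, with 3 of 7 called higher. Most of these sums came from 2 genes. Foxp1, the most abundant, had means of 85.9 CPM in control and 107 CPM in Lhx2 cKO. Ppp1r1b, not called, had means of 47.4 and 48.5 CPM. Besides Foxp1, those called higher were Drd1, with means of 5.56 and 9.24 CPM, and Penk, with means of 2.17 and 6.73 CPM. Interneuron markers summed to 216 to 251 and 289 to 297 CPM, with 2 of 9 called higher (22.2%, against 20.8% of all genes called). These were Sst, with means of 42.3 and 89.2 CPM, and Gad2, with means of 24.6 and 34.3 CPM. The other 7 were not called, with Lhx6, Gad1 and Sp8 below 0 on the log2 scale, and the list median was 0.20. For cortical hem and choroid plexus only Wnt2b and Rspo2 of 9 markers were tested, at 3.32 to 5.11 CPM together in control and 10.9 to 14.6 CPM in Lhx2 cKO. Rspo2 was called higher, with a mean of 2.35 CPM in control and 10.2 CPM in Lhx2 cKO. Wnt2b, with means of 1.87 and 2.56 CPM, was not called (log2 fold change 0.45, edgeR adjusted p 0.406). Red cell markers summed to 2338 to 3171 and 1899 to 2128 CPM, with 1 of 6 called higher and 5 lower. Tested markers were above 0 in both group means. The part of these cell types in the change of Dhrs3 was not tested.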

How the data were processed

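The deposited table holds raw read counts per gene for 4 libraries, and per the submitters' processing notes the tools include Trim Galore, Subread, featureCounts and edgeR and the build mm39, without roles or versions. The lowest row total was 102 counts, so low genes are not in it. The same table has the authors' log2 fold change and mean log2 CPM, their p-value and adjusted p-value, and a deposited -log10 of the latter.

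Here edgeR 4.0.16 (R 4.3.3) was run on the counts with TMM, filterByExpr (minimum 10) and the two-sided quasi-likelihood test, Benjamini-Hochberg adjusted over 13288 genes. SE is the absolute log2 fold change over the square root of F. RPKM used the deposited lengths. The fit was tested on simulated data. Libraries of a group differed by more than sampling noise, with chi-squares of 13.9 (control) and 14.3 (Lhx2 cKO) per degree of freedom. DESeq2 1.42.0 and other settings were alternatives. Promoter windows are RefSeq's (GRCm38.p6), and overlaps are from GENCODE M21.

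Members and lists were chosen with earlier results of these data known. A few pathway genes are not reported here. Named were the members, Lhx2, Rarg, Rxrb and up to 3 called genes per pathway list by smallest p; the genes of retinol uptake were named as the whole tested list, after their values were seen. From marker lists at most the 2 most abundant genes were to be named. Rspo2, Wnt2b and the tested meningeal markers were named in the text after their values were seen or as the only ones tested. Genes of the endothelial and pericyte, striatal and interneuron lists were also named after their values were seen.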

Additional observations from a re-analysis of the deposited data

How the results depend on the processing

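Dhrs3 was called higher, and the other 4 members not called, under RLE size factors, library totals, no filter, a mean count of at least 50, DESeq2, the replicate block and each fit without 1 library, except that Crabp2 was not tested at the mean count of 50. The log2 fold change of Dhrs3 ranged from 2.36 to 2.58 over these. In the fits without 1 library, the lone library of a group is assumed to vary like the other group. There the genes called ranged from 1633 (without Lhx2 cKO 2) to 2396, with 1790 without control 1, against 2758 with all libraries, and pathway genes called ranged from 9 to 12. DESeq2 called 2170 genes and 10 pathway genes; Rdh14 (adjusted p 0.0662) and Nr4a2 (0.0674) lost their calls there. Of members not called, Rdh10 ranged from -0.32 (without control 1) to 0.018 (without control 2, sign reversed), Rara from -0.11 (without control 2, sign reversed) to 0.17, and Crabp2 from -0.52 (without Lhx2 cKO 2, sign reversed) to 0.89. The cause was not tested.

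Same-numbered libraries did not deviate together (correlation 0.001 over genes between the differences of library 1 from library 2 in control and in Lhx2 cKO). The sources used here do not say whether libraries with the same number were paired. This correlation cannot settle it, because paired libraries need not deviate together. With the replicate block 2874 genes and 13 pathway genes were called, and Dhrs3 was at 2.48.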
